A study of Homo sapiens with 12 samples.

Results

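The 9 genes described here encode enzymes of serine synthesis and one-carbon metabolism: PHGDH, PSAT1, PSPH, SHMT1, SHMT2, MTHFD1, MTHFD2, MTHFD1L and ALDH1L2. They were taken by gene symbol from a raw count table of 20771 genes, and all 9 were among the 16515 genes with enough counts to be tested. The table holds RNA-seq of 2 human Ewing sarcoma cell lines, EW8 and TC71, in which the endogenous RRM1 gene had been knocked out with CRISPR/Cas9 and RRM1 was supplied by a codon-optimized, doxycycline-inducible transgene. RRM1 is the catalytic subunit of ribonucleotide reductase, the enzyme that makes deoxyribonucleotides. The 4 groups of 3 libraries were labelled EW8 at 0 h and at 48 h and TC71 at 0 h and at 48 h, and by the study's methods the time is that since doxycycline was removed. All libraries, those at 0 h included, therefore carried the knockout and the transgene. The knockout lines were cloned from single cells, and no library of the parental, unmodified lines was analysed here, so that line and clone cannot be told apart. Loss of RRM1 and withdrawal of doxycycline itself cannot be told apart either, because they go together in all libraries. The labels do not say whether the 3 libraries of a group came from separate cultures, and the p-values measure only the spread between these libraries.

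Serine is made in the cytosol from 3-phosphoglycerate, an intermediate of glycolysis, in sequential steps by PHGDH (phosphoglycerate dehydrogenase), PSAT1 (phosphoserine aminotransferase) and PSPH (phosphoserine phosphatase). The serine hydroxymethyltransferases SHMT1, in the cytosol, and SHMT2, in mitochondria, convert serine to glycine and pass its one-carbon unit to tetrahydrofolate. In mitochondria MTHFD2 and MTHFD1L oxidize the folate-bound unit and release it as formate, and ALDH1L2 oxidizes it to carbon dioxide with production of NADPH. The cytosolic trifunctional enzyme MTHFD1 loads formate onto tetrahydrofolate again, and these units enter purines, thymidylate and methionine. PHGDH, PSAT1, PSPH, SHMT2, MTHFD2, MTHFD1L and ALDH1L2 are known as targets of the transcription factor ATF4 when amino acids are scarce.

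Promoter sequences are shown for 3 members whose transcripts did not all move the same way. MTHFD1L and PSAT1 transcripts were lower at 48 h in both lines, and the MTHFD1 transcript was lower in EW8 and higher in TC71. The RefSeq windows (GRCh38.p14) ran from 250 bases before a transcript start to 50 bases from it on, and 6 of the 9 members matched. No window was matched for PSPH, SHMT2 and ALDH1L2. Each window was searched on both strands for the core of the CARE element bound by ATF4 (TGATGNAA), the E-box (CACGTG) and the AP-1 site (TGANTCA). No match overlapped another. Matches are in capitals, and no capitals means no match.

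MTHFD1L, chr6:150866236-150866535, + strand: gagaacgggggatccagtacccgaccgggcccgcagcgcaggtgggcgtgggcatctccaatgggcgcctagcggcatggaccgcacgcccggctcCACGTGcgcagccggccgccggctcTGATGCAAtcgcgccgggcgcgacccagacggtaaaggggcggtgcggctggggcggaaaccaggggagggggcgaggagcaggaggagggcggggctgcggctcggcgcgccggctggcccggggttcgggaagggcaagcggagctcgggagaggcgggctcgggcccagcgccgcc
MTHFD1, chr14:64388103-64388402, + strand: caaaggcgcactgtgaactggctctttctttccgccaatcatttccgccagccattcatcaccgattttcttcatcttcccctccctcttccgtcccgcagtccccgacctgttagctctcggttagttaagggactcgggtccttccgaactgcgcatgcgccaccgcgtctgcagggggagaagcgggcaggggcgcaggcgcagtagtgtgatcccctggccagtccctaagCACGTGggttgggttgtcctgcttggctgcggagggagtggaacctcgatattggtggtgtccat
PSAT1, chr9:78296875-78297174, + strand: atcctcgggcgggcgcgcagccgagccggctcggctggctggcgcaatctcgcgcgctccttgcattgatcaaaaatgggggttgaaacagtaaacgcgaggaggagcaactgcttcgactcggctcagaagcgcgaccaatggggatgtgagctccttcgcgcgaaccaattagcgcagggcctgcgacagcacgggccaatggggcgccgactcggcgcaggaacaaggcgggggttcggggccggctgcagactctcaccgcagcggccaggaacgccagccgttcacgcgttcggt

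The MTHFD1L window held a CARE core at position -129 and an E-box at position -154, counted from the transcript start. The same pair lay in the other windows of MTHFD1L that overlap this one, and the last of its 4 windows, farther along the gene, held no match. The printed MTHFD1L window lies inside the GENCODE canonical transcript (release 44, hg38) but in an intron of it, and 85 of its bases fall in exons of other MTHFD1L transcripts. The MTHFD1 window held an E-box at -15 and no CARE core. It contains the canonical transcript start, at 64388353 on chromosome 14. No match was found in the windows of PSAT1, PHGDH, SHMT1 and MTHFD2. Of all 35116 RefSeq windows of this length, 3.62% held a CARE core, 7.26% an E-box and 7.71% an AP-1 site. These matches are descriptions of letters, and binding was not measured in these libraries.

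The libraries held 18468485 to 35698991 counts. The lowest count of any of the 9 genes in any library was 559, and their coefficient of variation within a group ran from 0.254% to 6.04%. The levels below are CPM values, in which a count is divided by its library's total after scaling by TMM (trimmed mean of M values), and a change is a log2 fold change from edgeR's quasi-likelihood test with its standard error (SE), called when the Benjamini-Hochberg adjusted p over all genes tested was below 0.05. All 6 Ewing sarcoma markers examined (CD99, NKX2-2, NR0B1, STEAP1, FLI1 and EWSR1) were present in every library, with 128 counts at the least. The leukocyte marker PTPRC had at most 5 counts and the epithelial marker EPCAM at most 43, whereas the fibroblast markers had 236 to 945 counts (DCN) and 0 to 149 counts (LUM). DCN moved with the treatment, from 13.5 to 21.4 CPM in EW8 (log2 fold change 0.67, adjusted p = 7.72e-10) and from 18 to 29.2 CPM in TC71 (0.69, adjusted p = 1.46e-10), and LUM from 4.70 to 6.58 CPM in EW8 (0.49, adjusted p = 0.00176). Their part in the changes described here was not tested. The targeted gene RRM1 itself went from 9.52 ± 0.15 to 70.2 ± 5.5 CPM in EW8 (mean ± SD, n = 3) and from 16.2 ± 1.0 to 25.4 ± 1.2 CPM in TC71. Both times carry the knocked-out gene and the transgene is codon-optimized, so this row does not check the labels. Scaling by total counts alone moved the median over all genes from 0.03 to 0.16 (log2) in EW8, and with it 7207 genes rose and 4031 fell instead of 6103 and 5226. In TC71 that scaling gave 4631 risen and 2345 fallen genes instead of 3776 and 3179, and between the lines at 0 h 3910 and 6940 instead of 5415 and 5439.

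**Figure D1:**
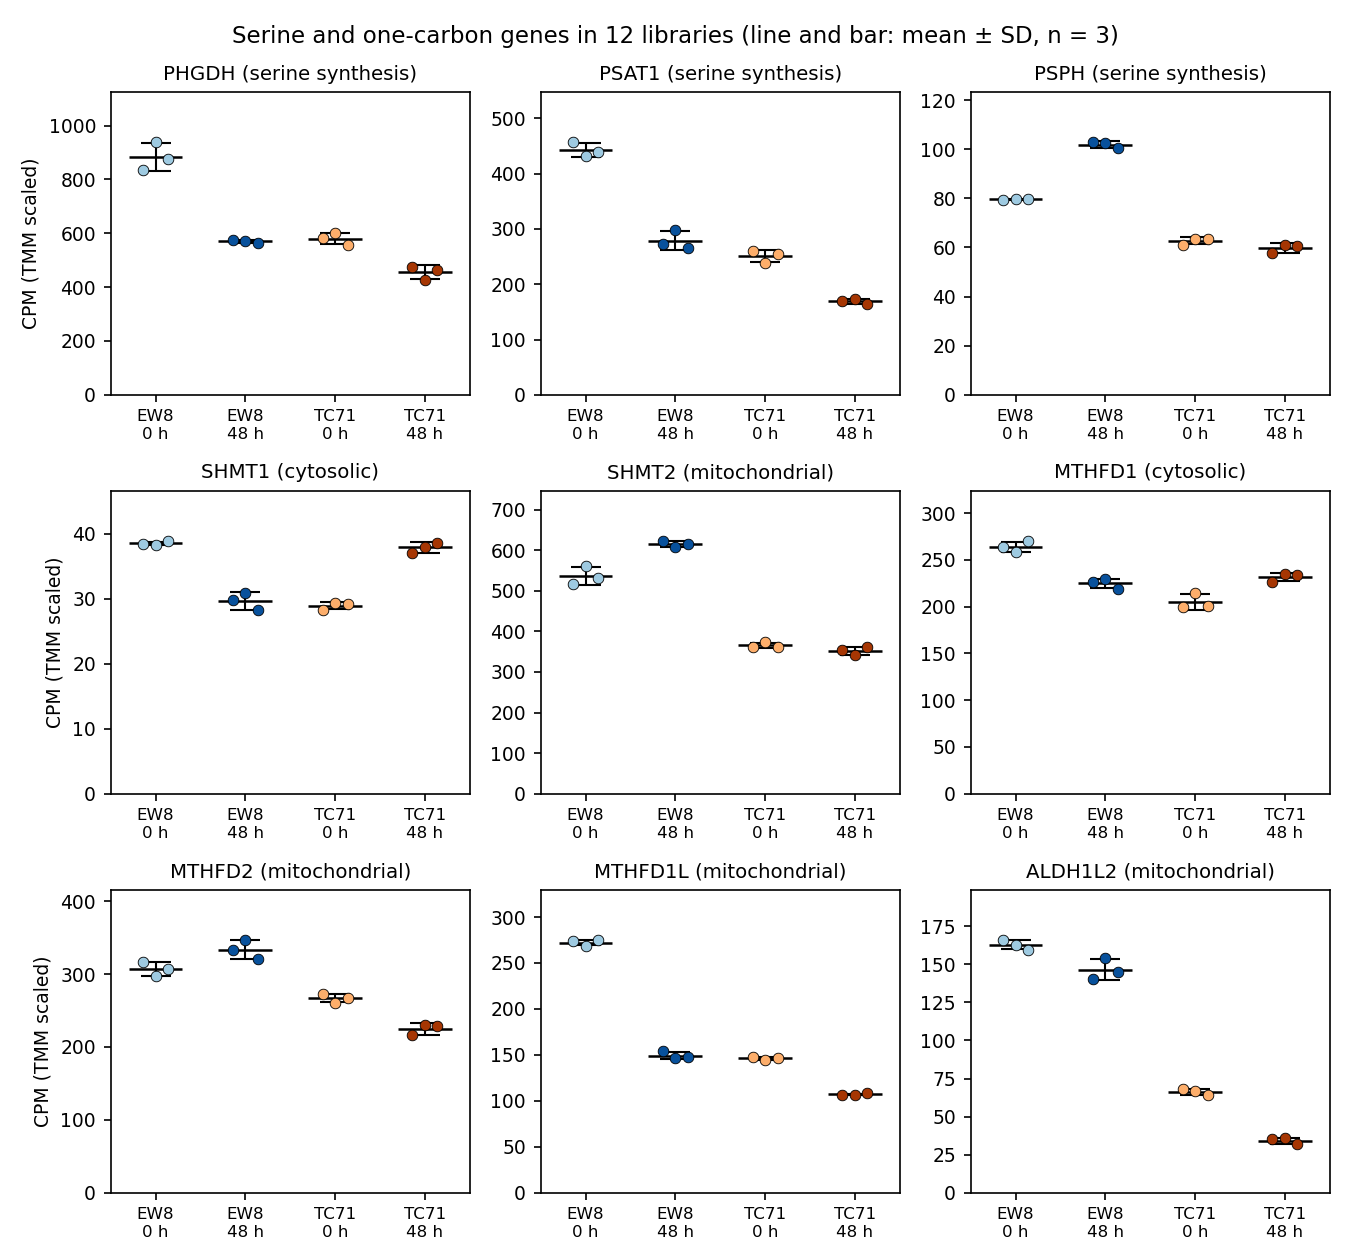
Level of each of the 9 genes in the 12 libraries, in TMM-scaled CPM on axes that start at 0. Points are libraries, the line is the group mean and the bar its SD (n = 3). The PHGDH, PSAT1 and MTHFD1L panels step down from 0 h to 48 h in both lines, whereas SHMT1 steps down in EW8 and up in TC71.

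The transcripts of the first enzymes of serine synthesis fell after doxycycline removal in both lines. PHGDH, which commits 3-phosphoglycerate to serine, fell by 35.4% in EW8 and by 21.5% in TC71, and PSAT1, which makes phosphoserine, fell by 37.0% and by 32.6%. PSPH, which releases serine from phosphoserine, did not follow them and rose by 27.9% in EW8. In these bulk libraries, fewer cells with a transcript and less of it per cell cannot be told apart.

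PHGDH (ENSG00000092621, chromosome 1 from 119648411 to 119744218) stood at 836, 937 and 877 CPM in the EW8 libraries at 0 h and at 576, 572 and 564 CPM at 48 h. Every EW8 library at 48 h lay below every EW8 library at 0 h. The log2 fold change was -0.63 (SE 0.042, adjusted p = 7.38e-15). In TC71 it had 584, 600 and 558 CPM at 0 h and 476, 425 and 465 CPM at 48 h, again without overlap. The TC71 change was -0.35 (SE 0.042, adjusted p = 3.83e-08). PHGDH fell more in EW8 than in TC71, with a difference of -0.28 between the log2 fold changes (SE 0.059, adjusted p = 0.000196). After this fall the EW8 libraries at 48 h reached the level of the TC71 libraries at 0 h, and the ranges of those groups overlapped.

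PSAT1 (ENSG00000135069, chromosome 9 from 78297125 to 78330093) had 457, 432 and 439 CPM in EW8 at 0 h and 273, 298 and 266 CPM at 48 h. The TC71 libraries held 260, 239 and 256 CPM at 0 h and 169, 174 and 165 CPM at 48 h. The 4 groups did not overlap at any step, in the order EW8 at 0 h, EW8 at 48 h, TC71 at 0 h and TC71 at 48 h. The log2 fold change was -0.67 in EW8 (SE 0.042, adjusted p = 8.92e-16) and -0.57 in TC71 (SE 0.043, adjusted p = 7.11e-13). PSAT1 was the only one of the 9 genes whose changes in the lines did not differ past the threshold: the difference was -0.10, with a 95% interval from -0.22 to 0.03 and an adjusted p of 0.198. Without EW8 0 h replicate 2 it was -0.15 (adjusted p = 0.0401), and without EW8 48 h replicate 2 it was also -0.15 (adjusted p = 0.0453).

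PSPH (ENSG00000146733, chromosome 7 from 56011051 to 56051604) had 79.5, 79.9 and 79.5 CPM in EW8 at 0 h and 103, 103 and 100 CPM at 48 h. All EW8 libraries at 48 h were above those at 0 h, and the log2 fold change was 0.36 (SE 0.045, adjusted p = 1.47e-08). In TC71 PSPH had 61.0, 63.6 and 63.3 CPM at 0 h and 57.6, 61.1 and 60.8 CPM at 48 h. These ranges overlapped, and the change of -0.07 did not pass the threshold (95% interval -0.16 to 0.03, adjusted p = 0.266). The responses differed by 0.42 (SE 0.064, adjusted p = 1.55e-06). The pseudogene PSPHP1 has its own row, with 66 to 165 counts per library, or 6.68% of the PSPH counts. Its EW8 change was -0.27 (adjusted p = 0.102) and its TC71 change -0.22 (adjusted p = 0.18), and how reads that match both were assigned was not given in the sources used here.

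The serine hydroxymethyltransferases moved in opposite directions within EW8. SHMT1, the cytosolic form, fell by 23.2% in EW8 and rose by 31.0% in TC71. SHMT2, the mitochondrial form, rose by 14.6% in EW8 and did not pass the threshold in TC71. SHMT1 (ENSG00000176974, chromosome 17 from 18327860 to 18363563) had 38.5, 38.3 and 38.8 CPM in EW8 at 0 h and 29.7, 30.9 and 28.2 CPM at 48 h. In TC71 it had 28.3, 29.3 and 29.2 CPM at 0 h and 37.0, 38.0 and 38.6 CPM at 48 h. The lines exchanged their levels: the TC71 libraries at 48 h overlapped the EW8 libraries at 0 h, and the EW8 libraries at 48 h overlapped the TC71 libraries at 0 h. The log2 fold change was -0.38 in EW8 (SE 0.057, adjusted p = 3.99e-07) and 0.39 in TC71 (SE 0.055, adjusted p = 5.93e-07). The difference between them was -0.77 (SE 0.079, adjusted p = 7.94e-10). Exons of SHMT1 share 2.81% of their bases with SMCR8 on the other strand, a gene with 5042 counts over all libraries.

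SHMT2 (ENSG00000182199, chromosome 12 from 57229573 to 57234935) was among the most abundant of the 9 transcripts. It had 517, 561 and 533 CPM in EW8 at 0 h and 621, 609 and 615 CPM at 48 h. Each library at 48 h was above each library at 0 h, and the log2 fold change was 0.20 (SE 0.036, adjusted p = 1.32e-05). In TC71 it had 362, 373 and 361 CPM at 0 h and 353, 342 and 361 CPM at 48 h, which overlapped. The TC71 change was -0.05 (95% interval -0.13 to 0.02, adjusted p = 0.258), and the responses differed by 0.25 (SE 0.052, adjusted p = 0.000135). Exons of SHMT2 share 7.67% of their bases with a long noncoding RNA on the other strand. Whether counting used strand was not given in the sources used here, and without strand the reads of such partners cannot be told apart.

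Among the mitochondrial enzymes that turn folate-bound one-carbon units into formate, MTHFD1L fell in both lines, and MTHFD2 rose in EW8 and fell in TC71. MTHFD1L, which releases formate, fell by 45.3% in EW8, the largest change of the 9 genes in that line, and by 26.9% in TC71. It (ENSG00000120254, chromosome 6 from 150865679 to 151101887) had 273, 269 and 275 CPM in EW8 at 0 h and 154, 146 and 147 CPM at 48 h. The TC71 levels were 148, 145 and 146 CPM at 0 h and 106, 107 and 108 CPM at 48 h. The groups at 48 h lay below those at 0 h in both lines, and the EW8 libraries at 48 h overlapped the TC71 libraries at 0 h. The log2 fold change was -0.87 in EW8 (SE 0.039, adjusted p = 5.59e-20) and -0.45 in TC71 (SE 0.039, adjusted p = 2.35e-11). EW8 showed the larger fall (difference of log2 fold changes -0.42, SE 0.055, adjusted p = 1.2e-07).

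MTHFD2, the mitochondrial methylenetetrahydrofolate dehydrogenase and cyclohydrolase, rose by 8.55% in EW8 and fell by 15.6% in TC71. It (ENSG00000065911, chromosome 2 from 74186172 to 74217565) had 317, 297 and 307 CPM in EW8 at 0 h and 333, 346 and 321 CPM at 48 h. For TC71 the values were 272, 261 and 268 CPM at 0 h and 216, 231 and 229 CPM at 48 h. The EW8 groups stood close to each other without overlap, and the TC71 groups were farther apart. The log2 fold change was 0.12 in EW8 (SE 0.040, adjusted p = 0.00889) and -0.25 in TC71 (SE 0.040, adjusted p = 6.48e-06), and they differed by 0.36 (SE 0.056, adjusted p = 1.88e-06). The EW8 call was lost without EW8 0 h replicate 2 (0.06, adjusted p = 0.168), without EW8 0 h replicate 3 (0.09, adjusted p = 0.0923), without EW8 48 h replicate 2 (0.09, adjusted p = 0.0689) and with upper-quartile scaling (0.08, adjusted p = 0.057). With total counts alone the EW8 change was larger instead (0.24, adjusted p = 1.03e-06). Exons of MTHFD2 share 11.6% of their bases with SLC4A5 on the other strand, a gene that had 120 counts over all libraries.

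MTHFD1, the cytosolic enzyme that loads formate onto tetrahydrofolate, went the other way from MTHFD2 in each line. It (ENSG00000100714, chromosome 14 from 64388031 to 64463457) had 264, 259 and 270 CPM in EW8 at 0 h and 226, 229 and 219 CPM at 48 h, a fall of 0.23 on the log2 scale (log2 fold change -0.23, SE 0.039, adjusted p = 3.02e-06). In TC71 it had 199, 215 and 201 CPM at 0 h and 227, 235 and 234 CPM at 48 h, with a change of 0.18 (SE 0.039, adjusted p = 0.000366). The groups did not overlap in either line. With total counts alone the EW8 change was smaller (-0.11, adjusted p = 0.00961). The responses differed by -0.41 (SE 0.056, adjusted p = 1.57e-07). Exons of MTHFD1 share 8.96% of their bases with the long noncoding RNA ENSG00000272909 on the other strand, which had 340 counts over all libraries. They share 1.03% with ZBTB25, also on the other strand, which had 4238 counts.

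ALDH1L2, the mitochondrial formyltetrahydrofolate dehydrogenase, showed the largest change of the 9 genes in TC71, a fall of 48.4%. ALDH1L2 (ENSG00000136010, chromosome 12 from 105019784 to 105107643) had 68.1, 66.5 and 64.0 CPM in TC71 at 0 h and 35.0, 35.7 and 32.0 CPM at 48 h. In EW8 it had 166, 163 and 160 CPM at 0 h and 140, 154 and 145 CPM at 48 h. All 4 groups were separate from each other. The log2 fold change was -0.95 in TC71 (SE 0.052, adjusted p = 1.59e-16) and -0.15 in EW8 (SE 0.046, adjusted p = 0.00407), and the difference was 0.80 (SE 0.069, adjusted p = 1.45e-11), about the size of that of SHMT1 and opposite to it in sign. The EW8 call was lost when libraries were scaled by total counts alone (-0.03, adjusted p = 0.607). The exons of ALDH1L2 overlap those of WASHC4 and NOPCHAP1, on the other strand, by 1.38% and 1.53% of their bases. Over all libraries WASHC4 had 26363 counts and NOPCHAP1 3603. ALDH1L1, the cytosolic counterpart, had 0 to 4 counts per library and was not tested.

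**Figure D2:**
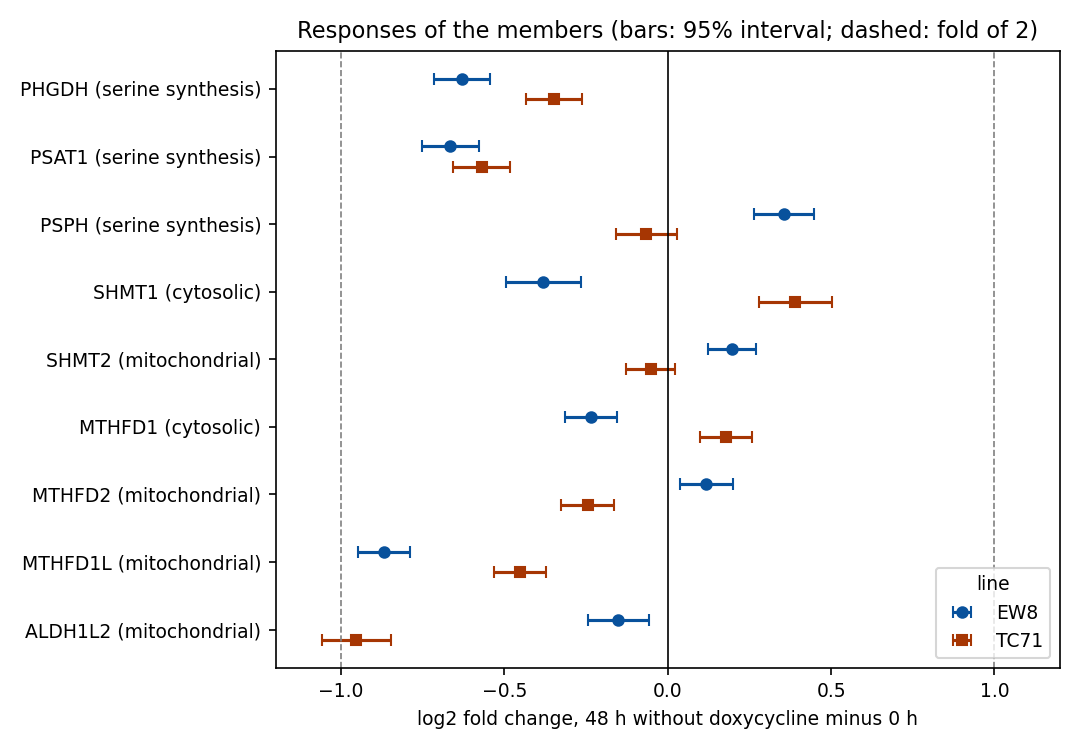
Log2 fold change of each gene from 0 h to 48 h without doxycycline in EW8 (circles) and TC71 (squares), with 95% intervals. Dashed lines mark a fold of 2, which no gene passed with its point estimate. The intervals of the lines are on opposite sides of 0 for SHMT1, MTHFD1 and MTHFD2, and both are below 0 for PHGDH, PSAT1, MTHFD1L and ALDH1L2.

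In EW8, 3 of the 9 genes rose (PSPH, SHMT2 and MTHFD2) and 6 fell, against 37.0% of all genes tested that rose and 31.6% that fell. The groups did not overlap for 9 of 9 genes, against 71.1% of all genes. The median log2 fold change of the 9 was -0.23, beside 0.03 for all genes. In TC71, 2 genes rose (SHMT1 and MTHFD1) and 5 fell, against 22.9% and 19.2% of all genes. The groups did not overlap for 7 of 9, against 49.6%, and the median was -0.25 beside -0.0013 for all genes. With the added requirement of a fold above 2, which the study used for its differentially expressed genes, none of the 9 was called in either line. That rule called 13.9% of all genes as risen and 3.35% as fallen in EW8, and 3.26% and 0.854% in TC71.

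PHGDH, PSAT1, MTHFD1L and ALDH1L2 fell in both lines, 4 of 9 beside 14.3% of all genes, although the EW8 fall of ALDH1L2 is lost under total counts alone, which leaves 3. None rose in both, beside 17.6% of all genes. SHMT1, MTHFD1 and MTHFD2 were called in opposite directions in the lines, 3 of 9 beside 2.82% of all genes. Where the EW8 call of MTHFD2 is lost, with upper-quartile scaling or without any one of the 3 EW8 libraries named for it above, 2 remain. The responses of the lines share no library. The difference between the responses passed the threshold for 8 of the 9 genes, 4 positive and 4 negative, where 25.7% of all genes had a positive and 22.4% a negative difference.

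The ratio of a mitochondrial to a cytosolic transcript within a library does not depend on how libraries are scaled. SHMT2 counts were 13.4, 14.6 and 13.7 times those of SHMT1 in EW8 at 0 h and 20.9, 19.7 and 21.8 times at 48 h. In TC71 they were 12.8, 12.7 and 12.4 times at 0 h and 9.54, 9.01 and 9.35 times at 48 h. The ratio thus went up by 0.58 on the log2 scale in EW8 and down in TC71 (log2 change -0.44). For MTHFD2 to MTHFD1 it was 1.16 ± 0.03 at 0 h and 1.48 ± 0.02 at 48 h in EW8 (mean ± SD, n = 3), and 1.30 ± 0.08 and 0.971 ± 0.017 in TC71. MTHFD1L to MTHFD1 instead went down in both lines, from 1.03 ± 0.01 to 0.664 ± 0.023 in EW8 and from 0.715 ± 0.037 to 0.461 ± 0.008 in TC71, log2 changes of -0.64 and -0.63. The groups did not overlap for any of these 6 comparisons. Each had a two-sided exact permutation p of 0.1, the smallest that 3 against 3 libraries can give, and 0.1 after Benjamini-Hochberg adjustment over the 6.

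**Figure D3:**
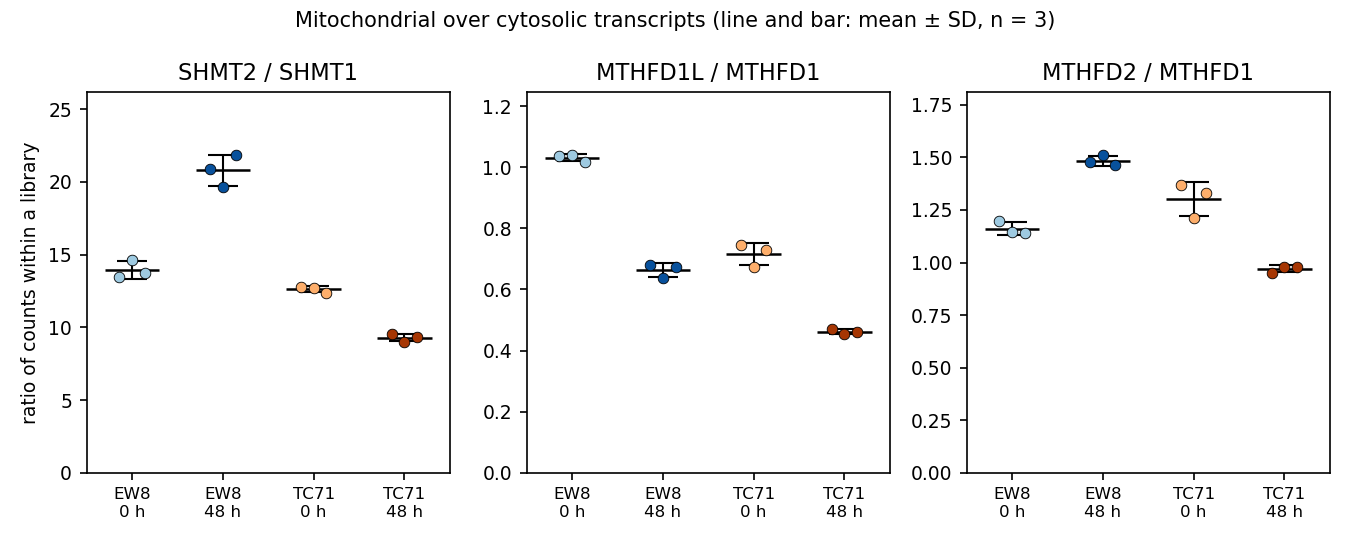
Ratio of mitochondrial to cytosolic transcripts within each library, from counts not divided by length, on axes that start at 0 (points: libraries, line and bar: mean ± SD, n = 3). SHMT2 over SHMT1 and MTHFD2 over MTHFD1 go up in EW8 and down in TC71, and MTHFD1L over MTHFD1 goes down in both.

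Before doxycycline was removed, all 9 transcripts were higher in EW8 than in TC71, where 32.8% of all genes were higher in EW8 and 32.9% lower. The libraries of the lines did not overlap for 9 of 9, against 68.3% of all genes. ALDH1L2 differed most, 2.46-fold (log2 difference 1.30, SE 0.048, adjusted p = 2.61e-22), and was the only one above 2-fold, beside 4.77% of all genes. MTHFD1L was 1.86-fold, PSAT1 1.76-fold, PHGDH 1.52-fold and SHMT2 1.47-fold higher in EW8. The smallest difference was that of MTHFD2, 1.15-fold (log2 difference 0.20, adjusted p = 3.78e-05), and it was lost when libraries were scaled by total counts alone (0.07, adjusted p = 0.101).

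At 48 h, 7 of the 9 were higher in EW8 and 1, SHMT1, was lower, beside 37.3% and 35.4% of all genes. The libraries did not overlap for 8 of 9, against 74.6%. ALDH1L2 was then 4.29-fold higher in EW8 (log2 difference 2.10, SE 0.051, adjusted p = 9.37e-28), again the only one above 2-fold, beside 10.5% of all genes. SHMT1 was lower in EW8, with a log2 difference of -0.36 (SE 0.056, adjusted p = 8.81e-07). MTHFD1 did not differ past the threshold (-0.05, 95% interval -0.13 to 0.03, adjusted p = 0.299), although it did with upper-quartile factors (-0.14, adjusted p = 0.00113), with total counts alone (-0.10, adjusted p = 0.0117) and when genes under 10 counts in any library were left out (-0.09, adjusted p = 0.0295).

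Compared per length of the canonical transcript (RPKM, from the scaled CPM), PHGDH was the highest of the 9 in each group, with 473 ± 27, 306 ± 3, 311 ± 11 and 244 ± 14 RPKM in EW8 at 0 h and 48 h and TC71 at 0 h and 48 h. SHMT2 followed with 249, 285, 169 and 163 RPKM, and PSAT1 with 201, 127, 114 and 76.8 RPKM. These levels put PHGDH above 98.7% to 99.2% of the tested genes and SHMT2 above 97.8% to 98.9%. The lowest level was that of SHMT1 in EW8 (15.2 RPKM at 0 h and 11.7 at 48 h) and of ALDH1L2 in TC71 (8.91 RPKM at 0 h and 4.61 at 48 h). Between them, MTHFD1 held 65.0 to 83.8 RPKM over the groups, MTHFD2 51.1 to 75.7, MTHFD1L 31.0 to 78.9 and PSPH 30.3 to 51.6. The order depends on the length used, at its top and below it. When levels were divided by the union of all annotated exons, PSAT1 was highest in 3 groups and SHMT2 in EW8 at 48 h. PHGDH has 9187 bases annotated as exonic, against 1866 in its canonical transcript. On that scale MTHFD1 stood above SHMT1 alone in EW8 at 0 h, and the lowest in TC71 at 0 h was SHMT1 (4.12 RPKM), not ALDH1L2 (6.97 RPKM).

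**Figure D4:**
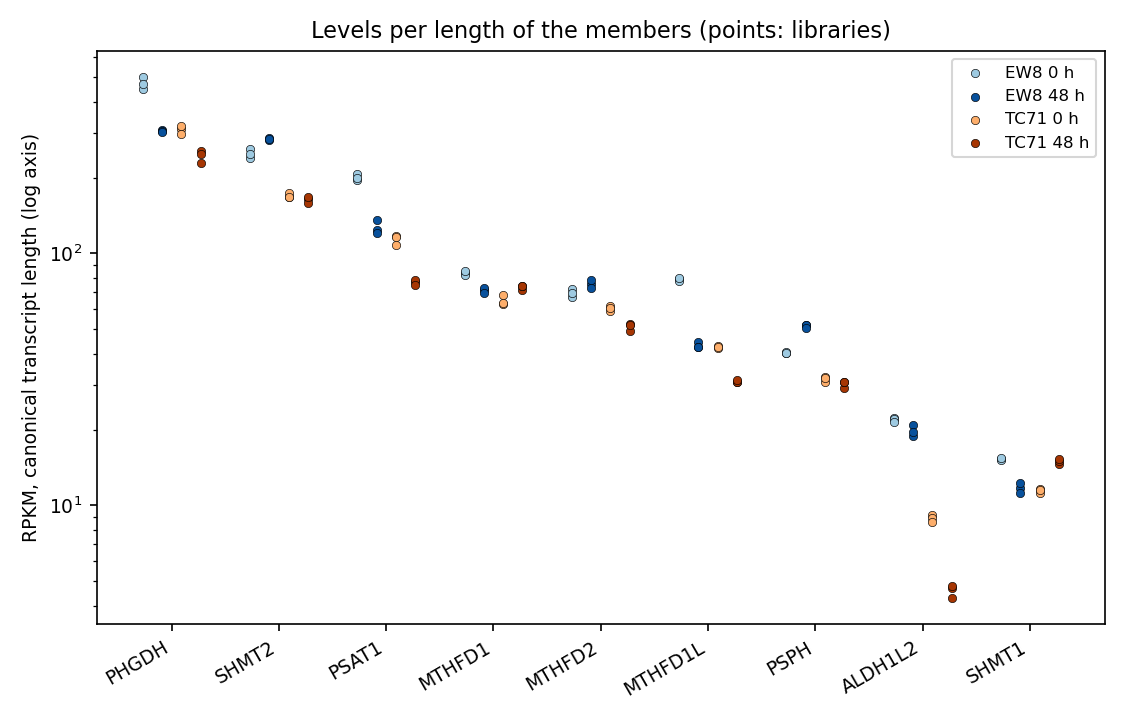
Level per length of the canonical transcript (RPKM, log axis) of the 9 genes in each library, by group. PHGDH is highest in every group, and ALDH1L2 in TC71 at 48 h is the lowest, at 4.61 RPKM on average.

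The genes most like each of the 9 were those with the smallest root mean square difference in log2 CPM centred on each gene's own mean, over the 12 libraries. SHMT1 was most like DUT (0.067), which removes dUTP, and TNFAIP8 (0.072) was also near it. MTHFD1 was most like MCM3 (0.042), a subunit of the replicative helicase, HPRT1 (0.045), the purine salvage enzyme, and CENPH (0.049), a kinetochore protein. PSAT1 was most like PAPOLA (0.066) and BCAT1 (0.067), the cytosolic branched-chain aminotransferase, followed by PSD3 (0.070). PSPH was most like GOT1 (0.053), the cytosolic aspartate aminotransferase, then GPATCH4 (0.054) and RACGAP1 (0.056). ALDH1L2 was most like the glutamine transporter SLC38A1, though at a larger distance (0.158), then the creatine transporter SLC6A8 (0.181) and TAP2 (0.233). The nearest genes of PHGDH were RRP9 (0.056), TSPAN17 (0.058) and ACLY (0.060), and those of SHMT2 were TBCC (0.032), SLC5A6 (0.039) and MAML1 (0.043). MTHFD2 lay nearest to DHX36 (0.040), DDX21 (0.041) and UBE2E1 (0.047), and MTHFD1L to LARP1 (0.044) and AGPAT5 (0.046). Among the 9 themselves, the closest pairs were PSPH with SHMT2 (0.092), PSAT1 with MTHFD1L (0.107) and SHMT1 with MTHFD1 (0.113). These are descriptions over libraries that share lines and times.

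In EW8, 9 of the 14 tested genes of a list of folate cycle and transport fell and 1 rose, beside 31.6% and 37.0% of all genes, with a median log2 fold change of -0.31 beside 0.03. In TC71, 5 fell and 3 rose, beside 19.2% and 22.9% of all genes, and the median was -0.03 beside -0.0013. TYMS, thymidylate synthase, had a log2 fold change of -0.08 in EW8 (adjusted p = 0.103) and rose by 0.46 in TC71 (adjusted p = 3.88e-10). MTHFD2L, the close relative of MTHFD2, fell in both lines (-0.66, adjusted p = 1.37e-08, and -0.48, adjusted p = 3.23e-06), as did SFXN1, which carries serine into mitochondria (-0.47, adjusted p = 4.37e-11, and -0.18, adjusted p = 0.00275). SLC25A32, the mitochondrial folate carrier, passed the threshold in neither line (-0.01, adjusted p = 0.807, and -0.11, adjusted p = 0.0709).

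After MCM3 had been seen beside MTHFD1, the MCM2 to MCM7 helicase subunits and PCNA were counted as well, so that this list was chosen from these values. All 7 fell in EW8, beside 31.6% of all genes. In TC71, 4 rose, beside 22.9% of all genes, and MCM2 (0.05, adjusted p = 0.382), MCM5 (0.11, adjusted p = 0.127) and MCM6 (-0.05, adjusted p = 0.333) did not pass the threshold. The difference between the lines was negative for 7 of 7, beside 22.4% of all genes. PCNA, the sliding clamp of replication, had log2 fold changes of -1.003 in EW8 and 0.37 in TC71. The part of cell-cycle phase in the changes of SHMT1 and MTHFD1 was not tested.

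Of 24 tested genes that use or carry serine and glycine, 7 rose and 6 fell in EW8, beside 37.0% and 31.6% of all genes, with a median of 0.01 beside 0.03. The numbers for TC71 were 3 and 6, beside 22.9% and 19.2%, with a median of -0.0009 beside -0.0013. The 3 that rose past a fold of 2 in EW8, beside 13.9% of all genes, were SDSL, SDS and SFXN3, all at very low levels. SDS, serine dehydratase, was counted 3, 4 and 7 times in the EW8 libraries at 0 h and 13, 18 and 20 times at 48 h. Its relative SDSL had 0, 0 and 3 counts and then 9, 8 and 12, and SFXN3 had 10, 7 and 25 and then 23, 19 and 28. GLDC, the decarboxylase of the glycine cleavage system, was singled out after its values were seen. It went from 58.5 ± 0.5 to 30.4 ± 2.3 CPM in EW8 (-0.94, adjusted p = 7.97e-16) and from 27.1 ± 0.5 to 17.2 ± 1.2 CPM in TC71 (-0.65, adjusted p = 5.97e-10).

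The methionine cycle and transsulfuration, which meet the folate cycle at homocysteine, had 14 tested genes, of which 10 fell and 3 rose in EW8, beside 31.6% and 37.0% of all genes (median -0.31 beside 0.03). In TC71, 7 fell and 1 rose, beside 19.2% and 22.9% (median -0.13 beside -0.0013). MAT2A, which makes S-adenosylmethionine, went from 559 ± 13 to 204 ± 4 CPM in EW8 (-1.45, adjusted p = 6.4e-18) and from 538 ± 30 to 354 ± 31 CPM in TC71 (-0.60, adjusted p = 6.85e-10). CTH, which makes cysteine from cystathionine, went the other way, from 22.6 ± 0.7 to 68.8 ± 3.5 CPM in EW8 (1.61, adjusted p = 2.35e-22) and from 27.0 ± 1.0 to 34.0 ± 1.8 CPM in TC71 (0.33, adjusted p = 2.54e-05).

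The ATF4 transcript fell in both lines, from 636 ± 8 to 527 ± 7 CPM in EW8 (-0.27, adjusted p = 1.91e-08) and from 407 ± 5 to 304 ± 10 CPM in TC71 (-0.42, adjusted p = 9.25e-12). Of 24 other genes known from the ATF4 amino acid response, 17 rose and 7 fell in EW8, beside 37.0% and 31.6% of all genes, and 11 of them rose past a fold of 2, beside 13.9%. In TC71, 10 rose and 10 fell, beside 22.9% and 19.2%, and past a fold of 2 were 4 risen and 1 fallen, beside 3.26% and 0.854%. Their medians were 0.67 and 0.13, beside 0.03 and -0.0013 for all genes. DDIT3, which encodes CHOP, had log2 fold changes of 5.18 and 2.72, ATF3 of 4.89 and 3.37, and DDIT4 of 2.74 and 1.16. NUPR1 passed the fold in EW8 although its counts were only 1, 1 and 3 before and 11, 21 and 17 after removal of doxycycline. ASNS, asparagine synthetase, fell instead, by 0.55 on the log2 scale in EW8 (log2 fold change -0.55, adjusted p = 2.27e-13) and by 1.08 in TC71 (log2 fold change -1.08, adjusted p = 1.37e-19). Among the 7 of the 9 enzymes that are also known ATF4 targets, PHGDH, PSAT1, MTHFD1L and ALDH1L2 fell in both lines, and MTHFD2 fell in TC71. ASNS fell in both lines too, whereas DDIT3, ATF3 and DDIT4 rose in both. The part of ATF4 in these changes was not tested. The EW8 call of ALDH1L2 is lost under total counts alone. PSPH, SHMT2 and MTHFD2 rose in EW8, by at most 0.36 with TMM scaling, and PSPH by 0.48 under total counts alone. The MTHFD2 call in EW8 is lost under the alternatives named above. In TC71, PSPH and SHMT2 did not pass the threshold.

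**Figure D5:**
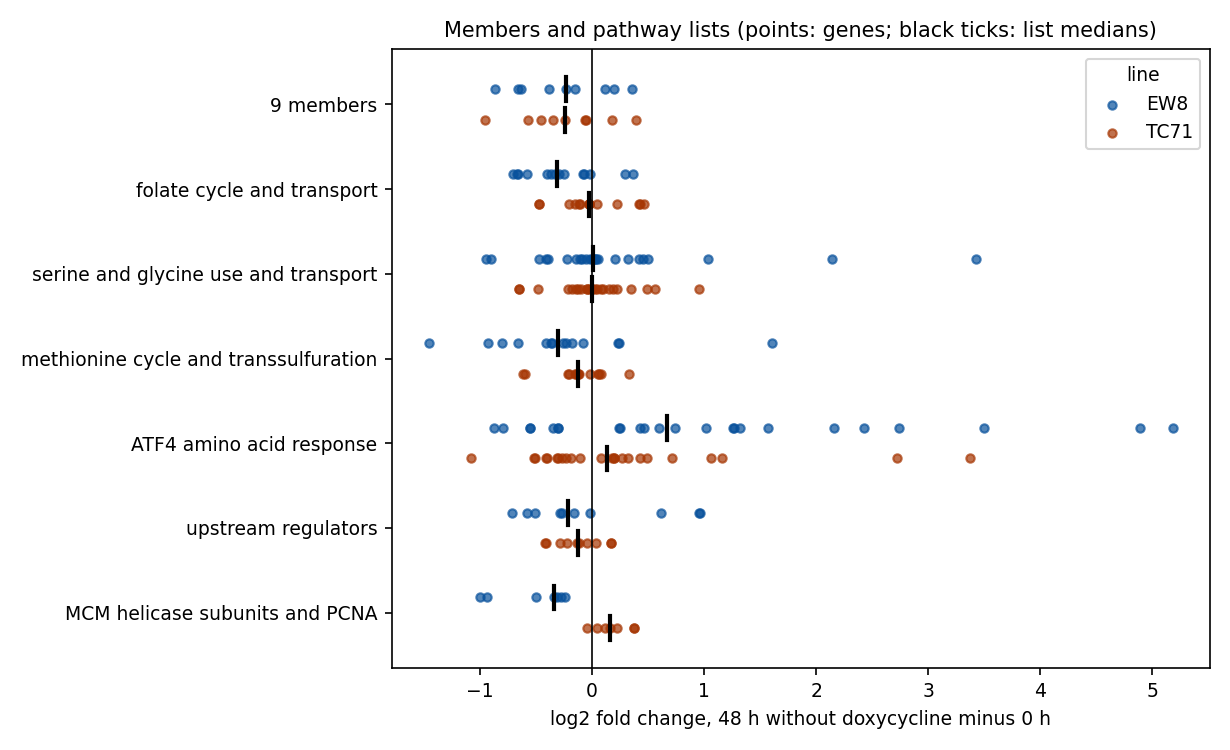
Log2 fold changes from 0 h to 48 h without doxycycline of the tested genes of each list, in EW8 (blue) and TC71 (brown-red). Points are genes and black ticks are medians. The 9 enzymes lie between -0.95 and 0.39, whereas genes of the ATF4 amino acid response reach 5.18.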

How the data were processed

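Polyadenylated RNA of EW8 and TC71 RRM1 knockout cells was sequenced by the authors from stranded libraries as paired-end 100 bp reads, checked with FastQC and mapped to hg38 with STAR. The authors deposited whole-number counts per gene and library, without normalization. The counting tool, its annotation, its strand setting and any filter on low counts were not given in the sources used here. Every gene in the table had at least 21 counts over the 12 libraries.

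Groups were taken from the sample labels. Counts were fitted in edgeR 4.0.16 (limma 3.58.1, R 4.3.3) over the 4 groups after filterByExpr (minimum count 10, minimum total 15) and TMM scaling, with the robust quasi-likelihood test and Benjamini-Hochberg adjustment over 16515 genes. The authors used DESeq2, which was run here (1.42.0) as an alternative, beside other scalings and filters, a fit that was not robust, each line alone, the replicate block and leaving out each library. Standard errors were derived from the fold change and F statistic. The 95% intervals cover the spread between libraries, and the common biological coefficient of variation was 4.17%. Replicates differed by more than sampling noise (chi-square per gene 1.98 to 9.16), and none was merged. Ratios were compared by exact permutation with scipy 1.17.1. Lengths came from GENCODE release 44, which matched 19943 of 20771 gene IDs.

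Named were all 9 members, RRM1, ATF4, the folate partners TYMS, MTHFD2L, ALDH1L1, SFXN1 and SLC25A32, up to 4 genes per list and line past a fold of 2, and the 3 most similar genes (at least 20 counts on average, pseudocount 0.5 CPM). Some genes that this rule names are not reported here. The members, lists and tests were chosen with earlier results of these data known, and the lists support nothing beyond their counts. PECAM1, VWF, CD3E and CDH1 were looked for as markers and had no row under these symbols in the count table, so that no endothelial marker was checked. Members of the regulator list are given at the end.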

Additional observations from a re-analysis of the deposited data

Results flagged for a closer look

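For 8 of the 9 genes, the change in EW8 differed from the change in TC71 by the test of the difference itself, in which a positive value means a higher log2 fold change in EW8. Of all genes, 25.7% had a positive and 22.4% a negative difference. The values were highest in size for ALDH1L2 and SHMT1, whose order changes between alternatives: ALDH1L2, 0.80 (95% interval 0.66 to 0.94), which fell in both lines and more in TC71, and SHMT1, -0.77 (-0.93 to -0.61), which fell in EW8 and rose in TC71. PSPH, with 0.42 (0.29 to 0.55), and SHMT2, with 0.25 (0.14 to 0.35), rose in EW8 and did not pass the threshold in TC71. MTHFD2 differed by 0.36 (0.25 to 0.48), up in EW8 and down in TC71, and MTHFD1 by -0.41 (-0.53 to -0.30), down in EW8 and up in TC71. MTHFD1L, with -0.42 (-0.53 to -0.30), and PHGDH, with -0.28 (-0.40 to -0.16), fell in both lines and more in EW8. The lines were cloned from single cells, so that a difference between lines and one between clones cannot be told apart.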

How the results depend on the processing

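The sign of each of the 9 genes in each of the 5 comparisons was the same under all alternatives tried, but sizes moved. Under total counts alone the EW8 change of SHMT2 was 0.32 instead of 0.20, and that of MTHFD1 -0.11 instead of -0.23. Between the lines at 0 h, PSPH then differed by 0.21 instead of 0.35 and MTHFD1 by 0.23 instead of 0.37. The counts of genes called rested on the low-count filter: with at least 10 counts in every library, the genes past a fold of 2 were 1204 risen and 306 fallen in EW8 (2294 and 554 otherwise), 197 and 36 in TC71 (539 and 141), 634 and 98 for the difference of responses (1202 and 162), 389 and 979 for the lines at 0 h (787 and 1964) and 921 and 1045 at 48 h (1738 and 1815). With that filter 13210 genes were tested. Total counts alone gave 345 fallen genes past a fold of 2 in EW8. At 48 h, 2 of the 9 genes instead of 1 were lower in EW8 under total counts alone, upper-quartile factors and the stricter filter, since MTHFD1 then passed the threshold. Of all genes, 6396, 6677 (of 16515) and 5240 (of 13210) were lower there, against 5853 of 16515. Total counts alone moved the median of all genes to 0.16 in EW8, 0.12 for the difference of responses and -0.14 for the lines at 0 h. DESeq2's Wald test changed no call of the 9 genes.

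Samples with the same replicate number did not deviate together: their correlations ran from -0.138 to -0.0147, and no library correlated best with its own number. The replicate block gave 6007 risen and 5162 fallen genes in EW8 and 3634 and 3003 in TC71, and changed no call of the 9 genes. Pairing by replicate number, added after the data were seen, gave each transcript ratio an exact p of 0.25, the smallest that 3 pairs allow.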

Other observations

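Of 10 tested genes of a list of regulators, 6 fell and 3 rose in EW8, beside 31.6% and 37.0% of all genes (median log2 fold change -0.22 beside 0.03). In TC71, 5 fell and 1 rose, beside 19.2% and 22.9% (median -0.13 beside -0.0013). MYC, MYCN, NFE2L2 and FLI1 are named here after their values were seen, and ATF4 is described above. MEN1 (-0.58), EIF2AK4 (-0.51), MDM2 (-0.28) and EWSR1 (-0.16) also fell in EW8. In TC71, KDM4C (-0.29), EIF2AK4 (-0.22) and EWSR1 (-0.14) fell as well. MYC activates many genes of nucleotide and one-carbon metabolism. Its transcript went from 422 to 817 CPM in EW8 (0.95, adjusted p = 6.31e-21) and from 467 to 452 CPM in TC71 (-0.05, adjusted p = 0.356). The difference was 0.998 (SE 0.055, adjusted p = 3.61e-16). The paper reports that the c-Myc protein went down in both lines after doxycycline removal, without a decrease in its mRNA. It also reports that the downregulated genes of both lines were enriched for c-Myc targets. These libraries hold transcripts only, and MYC activity was not tested. MYCN, a relative of MYC at 11 to 65 counts per library, had log2 fold changes of 0.96 (adjusted p = 0.00476) and 0.17 (adjusted p = 0.503). NFE2L2, the regulator of the oxidative stress response, had a log2 fold change of 0.62 in EW8 (adjusted p = 1.96e-14) and of 0.17 in TC71 (adjusted p = 0.00218). FLI1, whose 3' part is in the fusion of Ewing sarcoma, had changes of -0.72 (adjusted p = 6.06e-16) and -0.41 (adjusted p = 2.76e-09). The part of these regulators in the changes of the 9 enzymes was not tested.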
